A study of Mus musculus with 2 samples.

Results

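Transcripts of 4 steroid receptors and 2 glucocorticoid-converting enzymes were examined in tdTomato+ cells sorted from adult mouse skeletal muscle. The genes were *Pgr*, *Esr1*, *Nr3c1*, *Nr3c2*, *Hsd11b1* and *Hsd11b2*, taken by symbol, and all 6 were found among the 28001 features that both libraries share. They were chosen by symbol, with measured levels in these same libraries in view and no record of which values weighed in the choice, so the levels and the differences between libraries are given as descriptions.

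Steroid receptors are transcription factors that enter or act in the nucleus once a steroid binds them. *Pgr* encodes the progesterone receptor, *Esr1* oestrogen receptor alpha, *Nr3c1* the glucocorticoid receptor and *Nr3c2* the mineralocorticoid receptor. The enzyme encoded by *Hsd11b1* mainly regenerates active glucocorticoid inside cells, whereas that encoded by *Hsd11b2* inactivates it and so shields the mineralocorticoid receptor. Glucocorticoids act on muscle and on its connective tissue cells, and tamoxifen (TAM), the drug used here to induce Cre, is itself a ligand of oestrogen receptors.

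Both libraries came from C57BL/6J mice of the genotype Hic1CreERT2/CreERT2;Rosa26LSLtdTomato/tdTomato, in which CreERT2 is made from the *Hic1* locus and a cell with *Hic1* activity at the time of TAM is marked for good, along with its progeny. In the E10-P56 library, a dam was gavaged once with 7.5 mg TAM at embryonic day 10. Per the study's methods, dams of animals traced into adulthood also received progesterone, and the pups were delivered by caesarean section and raised by CD1 foster mothers. In the adult pulse library, animals were injected with 2.5 mg TAM on 5 consecutive days at 8 weeks of age and, per the labels, collected at postnatal day 56 like the other group, although the study's text gives a later day. Each group was 1 library made from pooled tibialis anterior muscles, so no difference between them has a replicate check. Time of labelling, TAM dose and route, time since TAM, progesterone, fostering, processing run and Cell Ranger version cannot be told apart. The same holds for any difference in age at collection or in library chemistry.

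The files held 69153173 unique molecular identifiers (UMIs, one per captured transcript) in 9195 barcodes of the adult pulse library and 67460919 in 8236 barcodes of the E10-P56 library, and 15 barcodes occurred in both. After cells under 1500 UMIs or above 10% mitochondrial UMIs were set aside, 8567 and 6087 cells were left, with median depths of 7344 and 7648 UMIs. Of these, 7093 adult pulse and 4185 E10-P56 cells fell in 9 fibroblast-like clusters. Most of these clusters came almost wholly from 1 library. Adult pulse fibroblast-like cells lay mainly in clusters led by *Smoc2*, *Smpd3*, *D630033O11Rik*, *Gdf10* and *Clu*, and E10-P56 ones in clusters led by *Aldh1a2*, *Krtdap*, *Cfd* and *Cxcl5*. The clusters led by *Clu* and by *Cfd* held a marker of another class (*Comp* and *Adipoq*) and none of the fibroblast list among their 10 leading genes against all other cells, although against the other named clusters *Clu* had the fibroblast marker *Gsn* and no such marker. The ratios in fibroblast-like cells of the 6 genes and of the companion lists were therefore also computed without them. Those values are given for the 6 genes where they left the counting interval, and for listed genes where a 2-fold call changed. Values of listed genes whose call held also moved, and most of these are not given. Levels are in CPM (UMIs of a gene scaled to 1000000 UMIs of its population), with 95% Poisson intervals that cover counting error only.

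The start of *Pgr*, which had the widest ratio of the 6 between the libraries, is shown for reference. RefSeq (GRCm38.p6) places the 250 bases before it at chr9:8899583-8899832 on the plus strand, outside every exon and gene of the GENCODE annotation. The windows of *Esr1*, *Nr3c2* and *Hsd11b1* overlap exons of those genes and are not printed, and promoters of *Nr3c1* and *Hsd11b2* were not used here.
*Pgr*: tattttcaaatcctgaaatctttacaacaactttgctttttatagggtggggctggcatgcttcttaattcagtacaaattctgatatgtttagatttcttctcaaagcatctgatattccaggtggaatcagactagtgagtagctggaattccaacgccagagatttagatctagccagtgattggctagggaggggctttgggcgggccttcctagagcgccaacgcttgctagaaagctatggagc

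No base is in capitals because none of the searched motifs was found in it on either strand. The letters searched were the oestrogen response element half-site GGTCA, held by 35.2% of 32851 promoter windows of the same length, and the half-site AGAACA shared by glucocorticoid and progesterone receptors, held by 16.1%. The full palindromes were GGTCANNNTGACC, in 0.0639% of windows, and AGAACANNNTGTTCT, in 0.00913%. Each half-site is contained in its palindrome. Of the other windows, that of *Nr3c2* held GGTCA at 2 places and those of *Esr1* and *Hsd11b1* held none of the motifs.

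Nearly all *Pgr* UMIs came from the adult pulse library. Fibroblast-like cells held 892 *Pgr* UMIs in the adult pulse library (15.2 CPM, 14.3 to 16.3) and 2 in the E10-P56 library (0.0468 CPM, 0.00567 to 0.169). The ratio was 326, with an interval of 89.9 to 2693 that is wide because it rests on those 2 UMIs. Without the *Clu* and *Cfd* clusters the counts were 884 and 2. The labels give 1 strain for both libraries, but the libraries were made with different Cell Ranger versions, and whether both runs used the same gene models is not given in the sources used here, so that this difference cannot be told apart from one of processing. The UMIs were spread over 371 adult pulse cells, the 5 highest of which held 9.30% of them. At 1500 UMIs per cell, 1.52% of adult pulse fibroblast-like cells had a *Pgr* UMI (1.25 to 1.84%), against 0 of 4185 in E10-P56, which allows up to 0.0717% by a limit of 3 cells. The mural cells that surround vessels served as the background: 0 of 396 adult pulse pericyte-like cells had one, at a median depth of 3203 UMIs against 7668 in fibroblast-like cells.

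The gene spans chr9:8899833-8968611 in GENCODE (GRCm38) and overlaps no other gene of the files. Fibroblast-like cells had 100 or more UMIs of 12355 genes, and with every count under 3 set to 3 its ratio of 217 was the fourth from the top, after *Gm20594*, *Zbtb8b* and *Pnp2*. Within 1000000 bases, 5 other genes reached this minimum. Only *Gm16485* of these was past 2-fold. It starts 3180 bases past the end of *Pgr* on the same strand and had 123 UMIs in adult pulse and 0 in E10-P56 fibroblast-like cells, a log2 ratio of at least 4.90 against a floor of 3 UMIs. The other 4 had log2 ratios from -0.83, for *Arhgap42* on the opposite strand, to 0.41, for *Cep126*.

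*Esr1* went the other way. It reached 39.9 CPM in E10-P56 fibroblast-like cells (38.0 to 41.8, from 1705 UMIs) and 22.9 CPM in adult pulse cells (21.7 to 24.1, from 1340 UMIs), 1.74-fold higher in E10-P56 (1.62 to 1.87). At 1500 UMIs per cell, 5.28% and 3.30% of these cells had a UMI, and 0 of 426 and 0 of 396 pericyte-like cells did. The CreERT2 feature of the reference, a transgene built on the ligand-binding part of an oestrogen receptor, lay at 1.75 CPM in E10-P56 and 2.02 CPM in adult pulse fibroblast-like cells. It was thus far below *Esr1* in both.

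The other receptors lay well inside 2-fold. The level of *Nr3c1* in fibroblast-like cells was 183 CPM in E10-P56 (179 to 187) and 208 CPM in adult pulse (205 to 212), a ratio of 1.14 (1.11 to 1.17). This small difference turned to a log2 ratio of -0.04 when the 8 fibroblast subsets with at least 20 cells in each library were weighted equally, a setting chosen after the data were seen. *Nr3c2* was scarce, at 3.56 CPM (3.01 to 4.17) and 4.15 CPM (3.64 to 4.71), and the interval of its ratio, 0.949 to 1.44, included 1.

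The enzymes differed in opposite directions. *Hsd11b1* stood at 202 CPM in adult pulse fibroblast-like cells (199 to 206, from 11835 UMIs) and 90.0 CPM in E10-P56 ones (87.2 to 92.9, from 3846 UMIs), a ratio of 2.25 (2.17 to 2.33). Without the *Clu* and *Cfd* clusters it was 2.02 (1.95 to 2.11), and with the subsets weighted equally it was 1.71, under 2-fold. Its gene overlaps *Lamb3* on the opposite strand, which had 22 and 45 UMIs in these cells, and how strand entered the counting is not given in the sources used here. *Hsd11b2* had 436 UMIs in E10-P56 (10.2 CPM, 9.26 to 11.2) and 72 in adult pulse (1.23 CPM, 0.962 to 1.55), so that the adult pulse level was 0.121 of the E10-P56 level (0.0926 to 0.155). This value changed with the cells kept: without the *Clu* and *Cfd* clusters the counts were 96 and 70 and the ratio was 0.409 (0.296 to 0.562). The *Cfd* cluster so left out held 863 E10-P56 and 24 adult pulse cells. With the subsets weighted equally the ratio was 0.134, inside the counting interval. The part of cell mix was not tested.

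In all, 3 of the 6 genes were past 2-fold between the libraries, namely *Pgr* and *Hsd11b1* towards adult pulse and *Hsd11b2* towards E10-P56, of which *Hsd11b1* was not when subsets were weighted equally. Of all 12355 genes with at least 100 UMIs, 8.5% were, 4.27% towards adult pulse and 4.23% towards E10-P56, and the median log2 ratio was -0.08. Since the 6 may have been chosen with this contrast in view, nothing is read from their share.

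**Figure D1:**
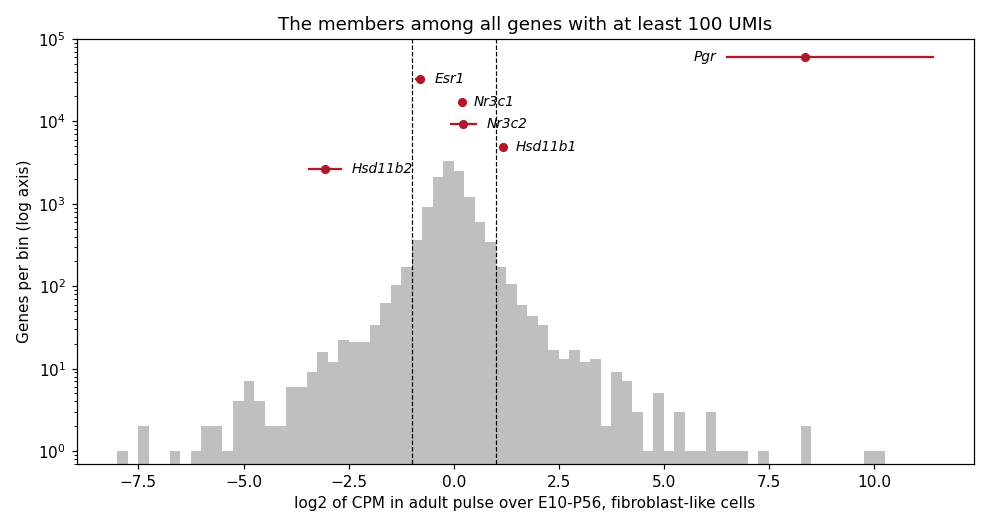
Log2 ratio of adult pulse over E10-P56 CPM in fibroblast-like cells for all 12355 genes (grey bars, genes per bin on a log axis), with the 6 genes in red above them, each with its 95% counting interval at a height that carries no value. Dashed lines mark 2-fold; *Pgr* lies at 8.35, *Hsd11b1* at 1.17 and *Hsd11b2* at -3.05, while *Esr1*, *Nr3c1* and *Nr3c2* lie inside the lines.

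Fibroblast-like cells were divided further into 9 subsets after each library was centred, with the 6 genes and their companion genes kept out of the clustering. A subset is called here by its leading gene. Those led by *Cxcl5* (318 E10-P56 and 4 adult pulse cells) and by *Myh11* (132 and 23 shallow cells, with mural and satellite cell genes among their leading genes) are given no weight in the subset comparisons that follow.

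*Pgr* was concentrated in a few adult pulse subsets. It was highest in the subset led by *Fmo2* and *Gdf10*, at 68.9 CPM from 197 UMIs. The small subset led by *Ctla2a* followed with 57.0 CPM from 37 UMIs in 50 cells, and the subset led by *Krtdap*, *Smpd3* and *Krt19* with 36.1 CPM from 413 UMIs. It was 9.71 CPM in both the *Fam167a* and *Cfd* subsets, 3.13 CPM in the *Kcnk2* and *Smoc2* subset and 1.41 CPM in the *Comp* subset. E10-P56 cells of the *Krtdap* subset held 1 UMI, and those of the other 6 subsets just named held none, so the adult pulse level was at least 24.1-fold higher in the *Fmo2* subset and at least 8.87-fold higher in the *Kcnk2* subset, against a floor of 3 UMIs per library.

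*Esr1* was higher in E10-P56 in all 7 subsets given weight, and the interval of the ratio lay below 1 in 4 of them. The difference was widest in the *Ctla2a* subset, with 69.9 CPM in E10-P56 and 18.5 CPM in adult pulse, and in the *Cfd* subset, with 44.3 and 12.4 CPM. In the *Krtdap* subset, with 26.8 and 24.3 CPM, the interval of the ratio included 1.

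*Nr3c1* had no common direction over the subsets: it was higher in adult pulse in 4 of the 7 and lower in 3. In the *Krtdap* subset it was lower in adult pulse, with 145 against 196 CPM, and in the *Comp* subset higher, with 222 against 192 CPM, and the interval of the ratio lay clear of 1 in those 2 alone. Levels of *Nr3c2* were from 0 to 5.89 CPM in the 7 subsets given weight, and no ratio had an interval clear of 1.

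*Hsd11b1* marked the *Kcnk2*, *Smoc2* and *Hmcn2* subset in both libraries, with 240 CPM in E10-P56 and 461 CPM in adult pulse. The *Krtdap* subset was lowest in both, with 10.2 and 32.6 CPM. It was higher in adult pulse in all 7 subsets given weight, by 1.37-fold in the *Comp* subset to 3.20-fold in the *Krtdap* subset, and every one of those intervals lay above 1. *Hsd11b2* was mainly found in the *Cfd*, *Car3* and *Fabp4* subset, which also leads with the adipocyte gene *Adipoq*. There it had 326 UMIs in E10-P56 (37.1 CPM) and 45 in adult pulse (7.53 CPM). The 326 are 74.8% of all its E10-P56 UMIs in fibroblast-like cells. It was also higher in E10-P56 elsewhere. Of the 7 subsets given weight, 5 had an interval for its ratio, and all 5 lay below 1, some from as few as 4 and 1 UMIs. In the *Kcnk2* subset it was at 6.24 CPM in E10-P56 and 1.09 CPM in adult pulse. The *Krtdap* and *Ctla2a* subsets held 8 and 10 UMIs in E10-P56 and 0 in adult pulse. Against a floor of 3 UMIs, the adult pulse level in the *Krtdap* subset was at most 0.203 of the E10-P56 level. In the small *Ctla2a* subset that floor was 4.62 CPM, above the E10-P56 level of 1.49 CPM, so its 0 gives no direction.

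**Figure D2:**
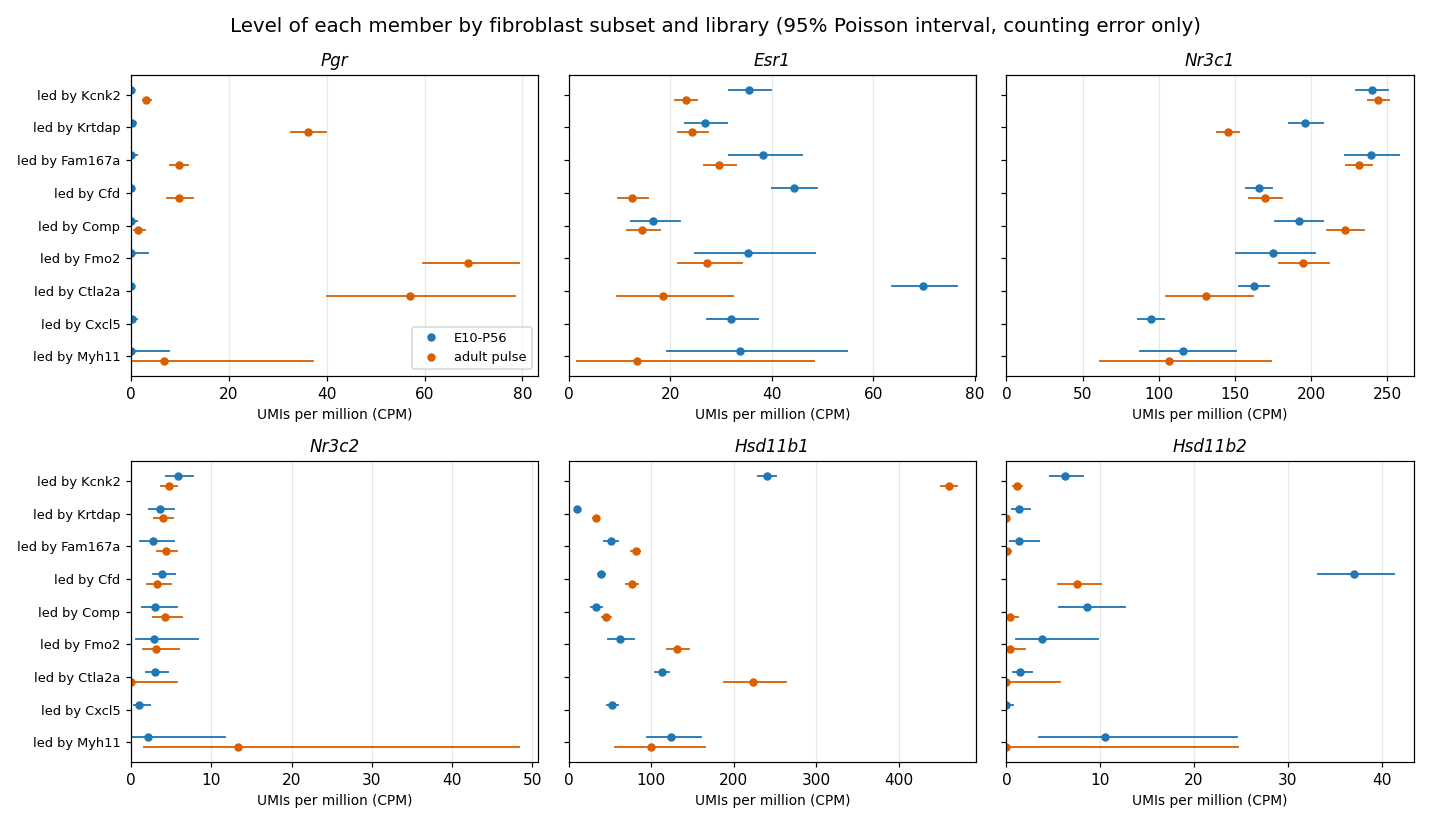
CPM of each gene (x axis) in the 9 fibroblast subsets named by their leading gene (y axis), in E10-P56 (blue) and adult pulse (orange), with 95% Poisson intervals; subsets under 20 cells in a library are left out. *Pgr* is orange only, reaching 68.9 CPM in the *Fmo2* subset, *Hsd11b1* peaks in the *Kcnk2* subset of both libraries and *Hsd11b2* in the *Cfd* subset of E10-P56.

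Outside the fibroblasts, *Pgr* was found in few cells. Osteochondral-like cells of the adult pulse library held 23 UMIs (35.2 CPM, 22.3 to 52.8), 73.9% of them in 5 of 63 cells, and those of E10-P56 none of 55 cells. No other population of either library had more than 3 UMIs. *Esr1* in osteochondral-like cells was 76.4 CPM in adult pulse and 42.6 CPM in E10-P56. Among the remaining populations it was at 45.8 CPM in E10-P56 cycling-like cells and at most 18.7 CPM elsewhere.

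*Nr3c1* was detected in every population. It was highest in endothelial-like cells of E10-P56 (429 CPM from 25 cells) and in pericyte-like cells, where both libraries agree within counting error (362 and 348 CPM). Perineurial-like cells, which sheathe nerve bundles, had 274 and 347 CPM, and their intervals overlapped. Cycling-like cells were lowest in E10-P56, with 75.2 CPM, at a median depth of 27856 UMIs, whereas osteochondral-like cells were lowest in adult pulse, with 97.8 CPM. *Nr3c2* had its highest level in perineurial-like cells in both libraries, 45.6 CPM in E10-P56 (33.0 to 61.4) and 29.4 CPM in adult pulse (9.54 to 68.6). The latter came from 5 UMIs in 36 cells, and its interval overlapped that of pericyte-like cells (23.9 CPM, 16.6 to 33.2). Among E10-P56 populations with more than 3 UMIs, smooth muscle cell progenitor-like, Schwann-like and pericyte-like cells followed with 35.2, 30.9 and 27.7 CPM, whose intervals overlap with each other and with that of perineurial-like cells. The adult pulse to E10-P56 ratio was 0.465 (0.232 to 0.853) in smooth muscle cell progenitor-like cells. In endoneurial-like cells it was 0.216 (0.0617 to 0.709), from 6 and 8 UMIs. Cycling-like cells had 4 UMIs in adult pulse, all in 1 cell, and 2 in E10-P56 (6.92 against 0.208 CPM).

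*Hsd11b1* was highest in endoneurial-like cells, the fibroblasts inside nerves, at 365 CPM in E10-P56 (302 to 437) and 671 CPM in adult pulse (624 to 721), a ratio of 1.84 (1.51 to 2.25). At 1500 UMIs per cell, 24.6% and 49.7% of these cells had a UMI. Fibroblast-like cells as a whole were next, with 11.6% and 21.4% of cells, and smooth muscle cell progenitor-like cells had 0.372% and 0%. In the *Kcnk2* subset of fibroblast-like cells the shares were 27.3% and 44.8%. These lay inside the endoneurial-like intervals of 14.5 to 37.3% and 41.5 to 57.9%. Tenocyte-like cells, at 22.0 and 21.3 CPM, did not differ beyond counting error. In pericyte-like cells the gene had 60 UMIs in adult pulse (40.9 CPM) and 8 in E10-P56 (5.27 CPM). Of the 60, 51.7% lay in 5 cells. All 9 fibroblast markers were detected in pericyte-like cells, as in every other population, with a summed level here of 6479 CPM in adult pulse and 3231 CPM in E10-P56. Their part in the result was not tested. The 13 UMIs of adult pulse Schwann-like cells lay in 2 cells. *Hsd11b2* had at most 2 UMIs in the other populations, apart from 25 in E10-P56 cycling-like cells and 14 in E10-P56 vascular smooth muscle-like cells, all 14 in 1 cell.

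**Figure D3:**
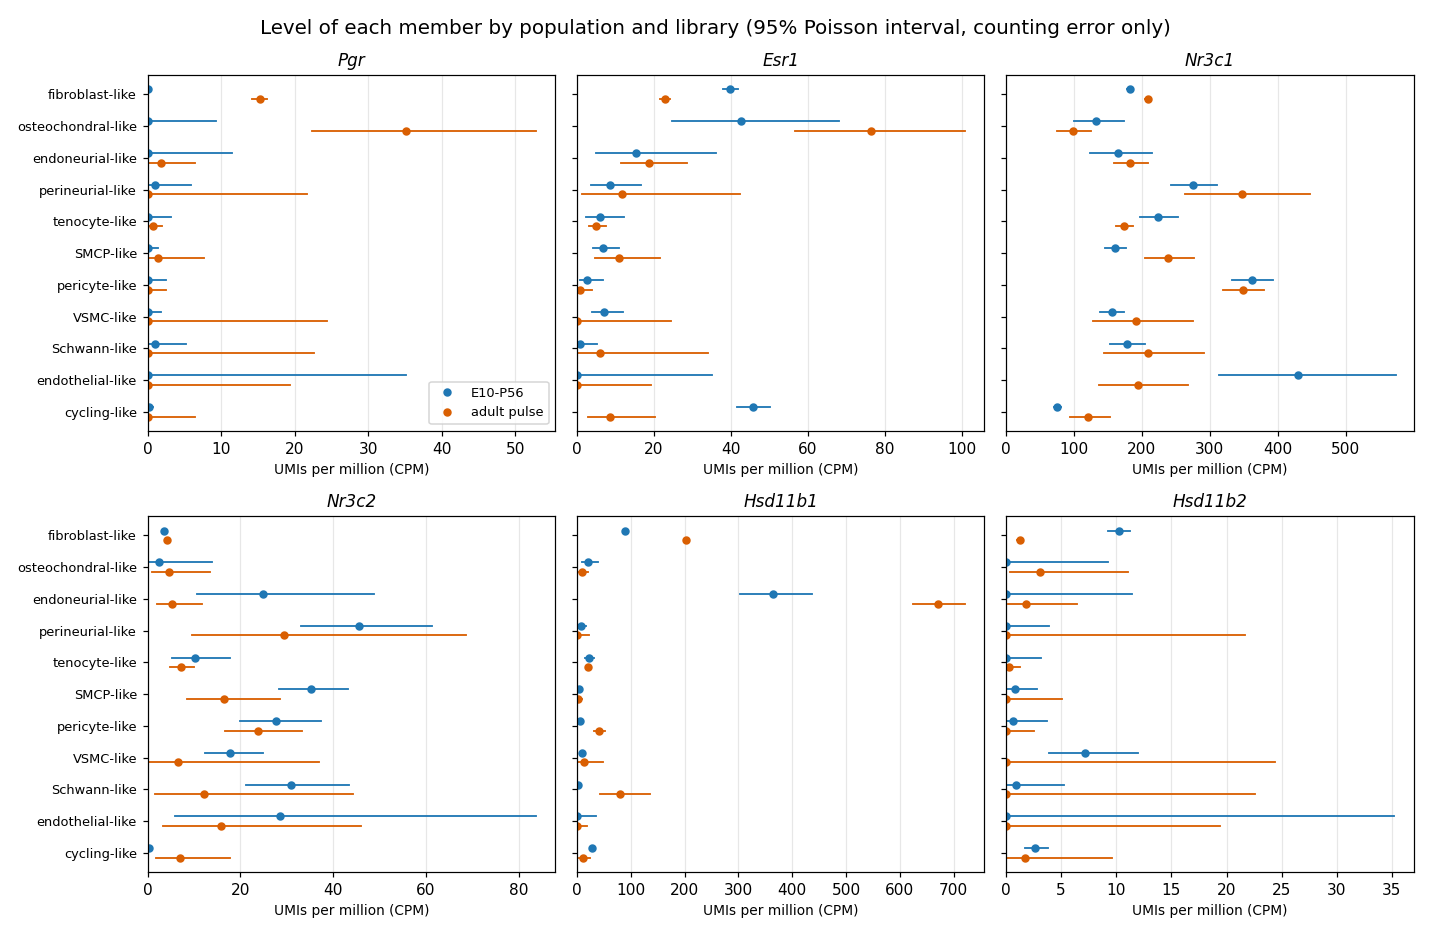
CPM of each gene (x axis) in the 11 named populations (y axis), in E10-P56 (blue) and adult pulse (orange), with 95% Poisson intervals. *Nr3c1* is present throughout, and *Hsd11b1* lies highest in endoneurial-like cells, at 365 and 671 CPM. *Nr3c2* lies highest in perineurial-like cells of both libraries, with intervals that overlap those of other populations.

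Detection of pairs in the same fibroblast-like cell was compared at 1500 UMIs. In adult pulse, 24.0% of cells with an *Nr3c1* UMI also had an *Hsd11b1* UMI (22.0 to 26.1%), against 20.6% of cells without (19.5 to 21.7%). In E10-P56 the shares were 13.8% (11.7 to 16.1%) and 10.9% (9.82 to 12.0%), and their intervals overlapped. *Esr1* was found in 8.33% of the 108 adult pulse cells with a *Pgr* UMI (9 cells, 3.88 to 15.2%) and in 3.22% of those without (2.82 to 3.66%). *Nr3c1* was found in 27.8% of adult pulse cells with an *Esr1* UMI and 24.7% of those without. In E10-P56 these shares were 29.4% and 23.5%, and the intervals overlapped in both libraries. Subsets were pooled here. In adult pulse, *Nr3c1* and *Hsd11b1* were at 244 and 461 CPM in the *Kcnk2* subset and 145 and 32.6 CPM in the *Krtdap* subset. The part of subset mix in the shares was not tested.

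The genes whose levels ran most like each member over 22 populations (11 per library) are given without a test, as the points share libraries and depth. They were *Klk1b24*, *Klk1b21* and *Isl1* for *Pgr* (Pearson r = 0.957, 0.932 and 0.874), with 245, 230 and 195 UMIs in all. *Pgr* itself had more than 3 UMIs only in adult pulse fibroblast-like and osteochondral-like cells, so these r values rest on those points. For *Esr1* the genes most alike were *Adamts2*, *Rbp4* and *Serpinb6a* (0.845 to 0.835). *Atf2*, *Ctdsp2* and *Pou2f1* were most like *Nr3c1* (0.871 to 0.853), and *Nr2f2*, *Pear1* and *Slc12a2* most like *Nr3c2* (0.860 to 0.840). *Chrm3*, *Ces1d* and *Trf* ran with *Hsd11b1* (0.910 to 0.869), and *Ccdc42*, *Sult1e1* and *Nkx6-1* with *Hsd11b2* (0.797 to 0.782).

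Genes of the same pathways were examined as lists in fibroblast-like cells, to be read beside the 4.27% of all genes past 2-fold towards adult pulse and the 4.23% towards E10-P56. Of 19 measured glucocorticoid receptor targets, 3 were past 2-fold towards adult pulse and 3 towards E10-P56, with a median log2 ratio of 0.15. *Tsc22d3*, which encodes the anti-inflammatory protein GILZ, was at 204 CPM in adult pulse and 91.0 CPM in E10-P56, and *Ddit4* and *Cdkn1a*, which restrain growth signalling and the cell cycle, were 2.18-fold and 2.02-fold higher in adult pulse. *Fkbp5*, a co-chaperone of the receptor, was 2.01-fold higher in E10-P56, *Angptl4*, an inhibitor of lipoprotein lipase, 2.95-fold and *Lcn2*, an acute-phase protein, 9.07-fold. Without the *Clu* and *Cfd* clusters the counts were 4 and 2: *Pdk4*, a kinase that restrains glucose oxidation, joined those towards adult pulse, *Fkbp5* was at 1.93-fold, *Angptl4* was 2.17-fold and *Lcn2* 17.0-fold higher in E10-P56. With size factors *Fkbp5* was likewise lost. The abundant metallothioneins pointed apart, *Mt1* with a log2 ratio of 0.42 and *Mt2* with -0.69, and *Dusp1* stood at 0.33.

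Of 16 oestrogen and 12 progesterone receptor targets listed, 11 and 6 had at least 100 UMIs, and *Pgr* itself was on neither list. Because these are so few beside the 8.5% of all genes past 2-fold, nothing is read from their counts. None of the 11 oestrogen receptor targets and none of the 6 progesterone receptor targets were past 2-fold. At a minimum of 30 UMIs, 1 of 13 oestrogen receptor targets was, *Muc1*, with 33 UMIs in E10-P56. Among the former, *C3* and *Igf1* had log2 ratios of -0.67 and -0.89 and *Igfbp4* -0.07; the list's median was -0.29. Among the latter, *Fst*, *Cited2* and *Hoxa10* were at 0.13, -0.03 and 0.52, and the median was 0.17. Of 6 mineralocorticoid receptor targets, 1 was past 2-fold, *Lcn2* again, and *Sgk1* and *Edn1* were at -0.73 and 0.00.

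Of 12 measured steroid-metabolising enzymes, 3 were past 2-fold, all higher in E10-P56: the oestrogen sulphotransferase *Sult1e1* by 8.70-fold (7.53 to 10.1), the oxysterol hydroxylase *Cyp7b1* by 4.75-fold and the steroid reductase *Srd5a1* by 2.04-fold. These folds changed with the cells kept, and the part of cell mix was not tested. *Sult1e1* is itself a leading gene of the *Cfd* cluster, which held 863 E10-P56 and 24 adult pulse cells. Without the *Clu* and *Cfd* clusters, *Sult1e1* was 2.74-fold, *Srd5a1* 2.40-fold and *Cyp7b1* 1.31-fold higher in E10-P56, so that 2 of 12 passed. With size factors 2 passed as well, without *Srd5a1*. *Hsd17b10*, *Hsd17b12* and *Hsd17b11* were at 0.22, -0.26 and 0.66. None of the 5 other measured steroid receptors and membrane progesterone-binding components, which include *Pgrmc1* and *Pgrmc2*, were past 2-fold, nor any of the 15 chaperones and coregulators, of which *Hsp90ab1*, *Hspa8* and *Hsp90aa1* were the most abundant. At a minimum of 30 UMIs, 1 of 6 such receptors and components passed, towards E10-P56. None of 12 dissociation and heat-shock response genes were past 2-fold, though their median was 0.40, with *Hspa1b*, *Jun* and *Hspa1a* at 0.14, 0.32 and 0.44. Without the *Clu* and *Cfd* clusters, however, 5 of them (*Fos*, *Junb*, *Egr1*, *Atf3* and *Dnajb1*) were past 2-fold towards adult pulse, by 2.06-fold to 2.35-fold. Among 14 clock genes, *Npas2* was 2.11-fold higher in adult pulse and *Dbp* and *Per2* 2.64-fold and 2.72-fold higher in E10-P56, whereas *Clock*, *Nr1d1* and *Arntl* were at 0.14, -0.11 and 0.84. Without those clusters *Tef* was also past 2-fold, 2.30-fold higher in E10-P56. The part of tissue handling and time of day in the members' values was not tested.

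**Figure D4:**
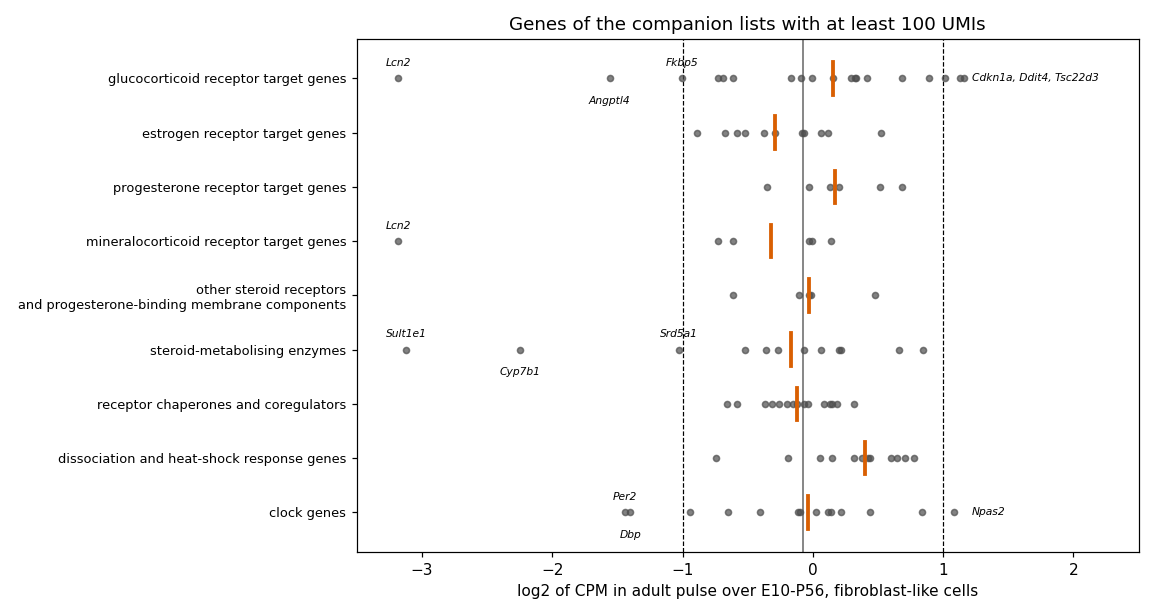
Log2 ratio of adult pulse over E10-P56 CPM in fibroblast-like cells (x axis) for each list's genes with at least 100 UMIs (grey points), with the list's median (orange bar), the median of all genes (grey line, -0.08) and 2-fold (dashed lines). Genes past 2-fold are named, and no oestrogen or progesterone receptor target lies outside the dashed lines.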

How the data were processed

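Single-cell 3' RNA-seq matrices were used as deposited, in raw counts of UMIs per gene and cell. Per the file headers, the authors made them with Cell Ranger 3.0.2 (adult pulse) and 5.0.0 (E10-P56), with mm10 named in the submitters' notes; the labels give chemistry v2 or v3, and the methods v3. The members and lists were chosen with earlier results of these data known. Cells needed 1500 UMIs and at most 10% mitochondrial UMIs. They were clustered together (2000 variable genes without the members and lists, 30 components, 20 neighbours, Leiden resolution 0.5; leidenalg 0.10.2, scikit-learn 1.9.0) and named "-like" from at least 3 markers, with at least 1 own marker among the 10 leading genes for types other than fibroblast and mural, a condition added after a first naming had called a fibroblast cluster myofibre; these last types were sought among the remaining clusters, fibroblasts against the named cells. Doublets were not removed in the main analysis. CPM intervals are exact Poisson, shares exact binomial (Clopper-Pearson) after thinning to 1500 UMIs, and ratio intervals conditional binomial, all covering counting error only. With 1 library per group no test was possible, so none was made. Named were all members, the 3 most abundant genes of each list and those past 2-fold, the 3 genes most alike to each member by log2(CPM + 5) and the leading subset genes; some genes this rule names are not reported here. The ratio step recovered known folds in simulated data. Those were independent Poisson counts, the model the intervals assume, without differences between libraries or cell mixes, so they check the calculation only. *Cebpd* and *Sts* were not matched by symbol, protein sequences were not used here, and promoter windows matched 4 of 6 members. Lists of sex-linked and transgene features were used as checks. Of their 4 and 4 measured genes, none and 1 were past 2-fold. The 1 was the feature SSM2GFP, at 14.7 CPM in adult pulse and 3.32 CPM in E10-P56. *Ddx3y*, *Eif2s3y* and *Uty* were the most abundant of the sex-linked genes.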

Additional observations from a re-analysis of the deposited data

Results flagged for a closer look

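In 4 cases a member's ratio between the libraries had an interval on the opposite side of 1 from that in fibroblast-like cells; the differences themselves were not tested. *Esr1* was 1.79-fold higher in adult pulse in osteochondral-like cells (1.02 to 3.32), from 50 and 17 UMIs, against 0.574 in fibroblast-like cells. *Nr3c1* had an adult pulse to E10-P56 ratio of 0.776 in tenocyte-like cells (0.674 to 0.896) and 0.453 in endothelial-like cells (0.285 to 0.715, from 37 and 45 UMIs), against 1.14 in fibroblast-like cells. *Hsd11b1* had a ratio of 0.435 in cycling-like cells (0.173 to 0.909), from 7 UMIs in 27 adult pulse cells, against 2.25 in fibroblast-like cells.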

How the results depend on the processing

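Over 16 settings each (13 planned and 3 chosen after the data were seen), the log2 ratios of *Pgr* (7.34 to 10.22), *Esr1*, *Nr3c2* (0.03 to 0.45), *Hsd11b1* and *Hsd11b2* in fibroblast-like cells kept their direction in every one, and *Nr3c1* in 15. Values outside the counting interval of the reported ratio were as follows, and the cause was not tested. At resolution 1.0, *Esr1* was -0.92, *Nr3c1* 0.28 and *Hsd11b1* 1.26, and with each library clustered alone they were -0.92, 0.27 and 1.23. With cells gated by their own markers, *Nr3c1* was 0.15 and *Hsd11b1* 1.07. With the mean of each cell's CPM they were 0.083 and 1.11, and with size factors 0.27 and 1.24. Without mitochondrial, ribosomal protein and the 20 most abundant genes, *Nr3c1* was 0.24. Of the added settings, equal weights over subsets turned *Nr3c1* to -0.040 and gave *Hsd11b1* 0.78. The 8 subsets so weighted include the one led by *Myh11*. There *Nr3c2* was at 13.4 CPM in adult pulse from 2 UMIs and at 2.11 CPM in E10-P56 from 1. Equal weights gave *Nr3c2* its highest value, 0.45, which leans on those few UMIs. *Hsd11b1* was at 100 CPM in adult pulse and 124 CPM in E10-P56 in that subset. Leaving out the *Cxcl5* and *Myh11* subsets gave *Nr3c1* 0.10 and *Hsd11b1* 1.10. Leaving out the *Clu* and *Cfd* clusters gave *Esr1* -0.63, *Nr3c1* 0.14, *Hsd11b1* 1.02 and *Hsd11b2* -1.29. Genes past the fold numbered 897 towards adult pulse and 788 towards E10-P56 at a minimum of 30 UMIs, 333 and 334 at 300 UMIs, 1218 and 1370 at 1.5-fold, 608 and 445 with size factors and 548 and 452 without the *Clu* and *Cfd* clusters, against 528 and 522. At 1.5-fold, 2 of 11 oestrogen receptor targets passed towards E10-P56 and 1 of 6 progesterone receptor targets towards adult pulse. Of all genes, 11.1% and 9.86% passed in those directions. Towards adult pulse and E10-P56, 5 and 6 of 19 glucocorticoid receptor targets passed, and 0 and 3 of 6 mineralocorticoid receptor targets. The counts were 4 and 1 of 12 dissociation and heat-shock response genes, 2 and 3 of 12 steroid-metabolising enzymes and 2 and 4 of 14 clock genes. They were 0 and 1 for the 5 other receptors and membrane components and for the 15 chaperones and coregulators. No paired analysis was possible because each group had 1 library. With 2 libraries, all differences here are between libraries, and low counts limit *Pgr* in E10-P56 and *Nr3c2* throughout.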
